A study of Mus musculus with 36 samples.

Results

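A set of 10 genes of the oligodendrocyte lineage were followed in mouse hippocampus: the receptor gene Gpr17 together with Pdgfra, Cspg4, Ptprz1, Xylt1, Olig2, Sox10, Bcas1, Enpp6 and Itpr2. They were chosen by gene symbol, and 10 of 10 were found among the 24421 symbols of the 4 deposited tables. RNA sequencing covered 36 libraries: 6 groups, each of 3 female and 3 male samples. The C57BL/6 arm held young mice (8 months), old mice (18 months) and old mice given nanoligomer (18 months). The other arm held transgenic APP/PS1 mice, non-carrier littermates, and APP/PS1 mice given nanoligomer (4 months each). The groups not given nanoligomer carry the treatment label control, which does not say whether a vehicle was given. The series title names downregulation of NF-κB and NLRP3. The nanoligomer's dose and duration, and the APP/PS1 line with its promoter, are absent from the labels. APP/PS1 nanoligomer female 3 was left out for low depth, which left 35 libraries. Nothing in the labels says that libraries of a group came from separate animals, so p-values measure the spread between these libraries only.

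Oligodendrocyte precursor cells persist in the adult hippocampus. They divide under platelet-derived growth factor, carry the receptor PDGFRα and the proteoglycan NG2, and leave the cell cycle to become committed precursors that display the G protein-coupled receptor GPR17. GPR17 appears for a short window and is lost again before myelin is made, while BCAS1 and ENPP6 mark newly formed oligodendrocytes.

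Depth was 27.6 to 46.3 M (units of 1000000) assigned reads in the 35 libraries. The low library held 0.913 M, with 0 reads of Gpr17, Bcas1, Sox10 and Cspg4 and 264 of Itpr2. The transgene check held: App was higher in APP/PS1 than in littermate libraries by 1.08 on the log2 scale (SE 0.112; limma, adjusted p = 0.00162). Tissue markers varied widely. Of the CA1 pyramidal cell genes, Wfs1 ran from 82.0 to 343 reads per 1000000 assigned reads (CPM), Fibcd1 from 9.66 to 201.8 and Spink8 from 0.244 to 9.61. Of the dentate granule cell genes, Prox1 ran from 8.44 to 70.8 CPM, C1ql2 from 1.15 to 129.3 and Dsp from 0.389 to 58.7. Dsp was under 5 CPM in 8 of the 35 libraries: young male 2, old male 3, old nanoligomer females 2 and 3, APP/PS1 females 1 and 3, and APP/PS1 nanoligomer males 1 and 2. No littermate library was among them (25.0 to 58.7 CPM). Gpr17 is therefore also given for libraries with Dsp of at least 5 CPM, a threshold chosen after the values were seen. Furthermore, 2 libraries stood apart in the members themselves, APP/PS1 female 3 and old nanoligomer female 2, and the values that rest on them most are also given without them. Both are among the 8 with Dsp under 5 CPM. In comparisons that hold them, the Dsp subset leaves them out too and is no separate check on dissection.

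On GRCm38, Bcas1 (ENSMUSG00000013523.13, chr2:170346991-170427845, minus strand) shares 440 exonic bases with the antisense transcript Bcas1os1. Gpr17 (ENSMUSG00000052229.5) shares 188 exonic bases, 3.62% of its exon length, with Lims2 on the opposite strand. The labels do not say whether reads were counted by strand, so reads in these bases may belong to either gene. Lims2 itself averaged 16.1 CPM.

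Enpp6 (ENSMUSG00000038173.15) lies at chr8:46986887-47096762 on the plus strand. SOX10 and related SOX factors bind short sites with the core letters ACAAT or ACAAAG. The stretch upstream of Enpp6 is shown because Enpp6 was, beside Gpr17, the member that was most raised in the library that stood apart furthest; it was picked after those values were seen. The 250 bases before the gene's start (chr8:46986637-46986886, RefSeq, GRCm38.p6) read 5′ to 3′ as follows, with the match to ACAAT in capitals.
Enpp6: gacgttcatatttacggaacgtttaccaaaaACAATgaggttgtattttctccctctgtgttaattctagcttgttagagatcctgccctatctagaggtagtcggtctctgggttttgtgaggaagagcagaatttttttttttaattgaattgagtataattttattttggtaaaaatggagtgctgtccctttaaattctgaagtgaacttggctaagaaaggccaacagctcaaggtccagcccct
Both strands were searched, and the motifs cannot overlap on the same strand. Of 6 members with an entry in the RefSeq promoter table, Enpp6, Cspg4 and Olig2 each held 1 match to ACAAT and Pdgfra, Ptprz1 and Itpr2 held 0. Across 32851 promoters, 27.7% held ACAAT in this window and 16.5% held ACAAAG, which was in none of the 6.

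The members differed in level by a wide margin. Per kilobase of exon, Bcas1 was highest at 62.4 ± 18.0 CPM per kb (SD, n = 35 libraries), followed by the lineage transcription factor Sox10 at 24.9 ± 4.29. Ptprz1, a receptor phosphatase for pleiotrophin that astrocytes also carry, stood at 17.6 ± 2.77 CPM per kb. Olig2, the basic helix-loop-helix factor that specifies the lineage, stood at 15.7 ± 3.55. Gpr17 stood below these at 11.0 ± 6.02, and Pdgfra, the PDGF-AA receptor, stood at 5.47 ± 0.753. Cspg4 (NG2) at 2.92 ± 0.504, Xylt1 at 2.76 ± 0.563 and Itpr2 at 2.38 ± 0.420 CPM per kb were neighbours whose mean ± SD overlap. Xylt1 starts the sugar chains of proteoglycans, and Itpr2 encodes a calcium channel of the endoplasmic reticulum. Enpp6, a choline phosphodiesterase, was lowest at 0.880 ± 0.349. Neighbours in this order whose mean ± SD overlap are Ptprz1 with Olig2, Olig2 with Gpr17, and Gpr17 with Pdgfra. The counts behind these levels ran from 98 reads of Enpp6 to 17023 reads of Bcas1 in a library.

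The range of Gpr17 between libraries rested on 1 library. Its highest library held 7.36 times its lowest (220.8 CPM in APP/PS1 female 3 and 29.985 CPM in old nanoligomer male 1), against 5.47 times for Enpp6 and 1.86 times for Pdgfra. With APP/PS1 female 3 left out it was 2.43 times for Gpr17, below Bcas1 (2.90), Enpp6 (2.85) and Olig2 (2.70). By group, Gpr17 averaged 36.9 ± 5.14 CPM in old, 40.9 ± 13.8 in old nanoligomer and 56.5 ± 5.74 in young libraries (SD, n = 6 each). In the transgenic arm it averaged 59.0 ± 10.3 CPM with nanoligomer (n = 5), 63.6 ± 5.21 in littermates and 87.2 ± 65.8 in APP/PS1 (n = 6 each). Old and old nanoligomer were closer than their SD, as were young and APP/PS1 nanoligomer, and APP/PS1 nanoligomer and littermate. Without female 3, APP/PS1 averaged 60.4 ± 7.74 CPM (SD, n = 5), within 1 SD of littermate. The arms differ in strain label and age and are set side by side here without a test.

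**Figure D1:**
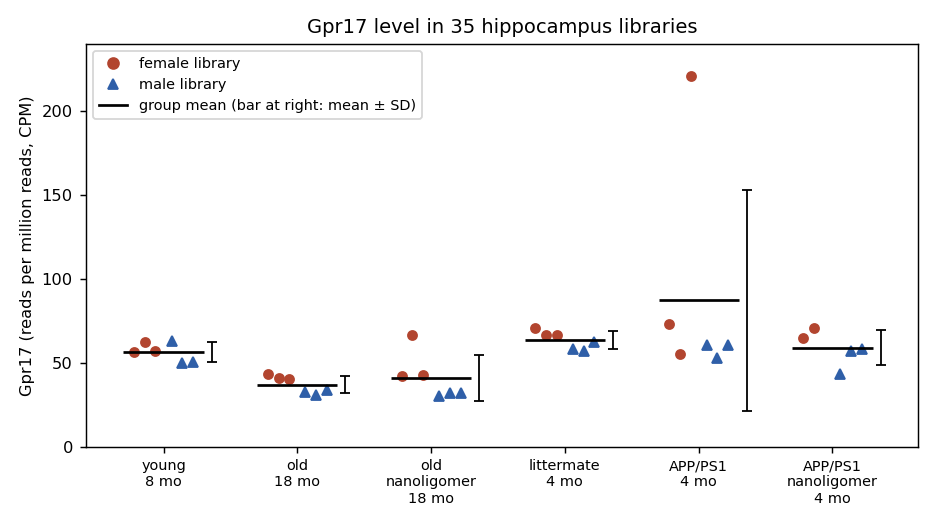
Gpr17 in CPM (vertical axis) in each library of the 6 groups, with females as circles, males as triangles, a line at the group mean and a bar of mean ± SD at its right. The old libraries lie at 30.6 to 43.0 CPM, below the young libraries at 49.7 to 63.0 CPM, and APP/PS1 female 3 stands alone at 220.8 CPM.

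The first comparison set 18 month against 8 month C57BL/6 hippocampus. Gpr17 fell with age and was the only one of the 10 genes that passed the test. The old libraries held 1733, 1632 and 1633 normalized counts in females and 1297, 1267 and 1379 in males. The young libraries held 2302, 2490 and 2298 in females and 2373, 2061 and 2018 in males. Every old library lay below every young library, in both sexes. The change was -0.61 on the log2 scale (SE 0.0622, 95% limits -0.74 to -0.47), or 0.657 times the young level (limma, adjusted p = 0.00159). Across all genes, 6 of 16626 (0.0361%) were called, and in 84 genes (0.505%) the groups did not overlap. Gpr17 ranked 4 of all genes by p and the only gene called lower; 5 were called higher. In bulk tissue, fewer cells of a type and less RNA per cell cannot be told apart.

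No other gene of the set was called. Of the precursor surface genes, Pdgfra differed by -0.11 (SE 0.0772), Cspg4 by -0.08 (SE 0.0801) and Ptprz1 by -0.10 (SE 0.0840) on the log2 scale, each with 95% limits that include 0. Olig2 differed by -0.04 (SE 0.106), Sox10 by 0.10 (SE 0.111) and Xylt1 by -0.01 (SE 0.124). Enpp6, which marks the stage after Gpr17, differed by -0.03 (SE 0.192), with limits from -0.45 to 0.38. These 7 had unadjusted p-values from 0.183 to 0.959 in limma.

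Bcas1 and Itpr2 leaned the other way without passing the test. Myelin genes were also higher in 18 of 20 with age (median 0.19, 0 called). Which stage or cell type the Bcas1 and Itpr2 differences come from was not tested. Bcas1 had a lowest, median and highest value of 5735, 10178 and 12290 normalized counts in young and of 10516, 12246 and 16584 in old libraries. The groups overlapped, and the difference was 0.42 (SE 0.163; limma, unadjusted p = 0.0234, adjusted p = 0.720). With the regional covariates described below, the Bcas1 difference was -0.23 and that of Sox10 -0.25, opposite in sign to the values without them. Itpr2 had 1102, 1302 and 1377 in young and 1361, 1500 and 1536 in old libraries, so that 5 of 6 old libraries exceeded every young one. Its difference was 0.19 (SE 0.0536; limma, unadjusted p = 0.00357, adjusted p = 0.460). An unadjusted p under 0.05 was reached by 3 of the 10 genes, against 6.13% of all genes. The median change over the 10 genes was -0.04, beside a median of -0.0039 over all genes tested.

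The Gpr17 difference pointed the same way in both sexes. It was -0.50 (SE 0.0809) in females and -0.71 (SE 0.0809) in males, with an adjusted p of 0.193 and 0.0130 in limma. The sexes were not shown to differ, with an interaction of -0.20 (SE 0.114, adjusted p = 0.983); 0 of 16626 genes (0%) had a called interaction with age, and 730 an unadjusted p under 0.05. In old mice the 3 females (41.4 CPM on average) stood above the 3 males (32.4 CPM).

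Markers of other cells and regions moved with age as well. The choroid plexus list had a summed level of 39.7 to 4284 CPM in young and 35.3 to 294 CPM in old libraries, with 12 of 12 genes lower, a median of -1.92, and 0 called. Young female 3 and young male 2, at 154.6 and 39.7 CPM of choroid plexus markers, were within the old range and held 56.8 and 49.7 CPM of Gpr17, above the highest old library at 43.0 CPM. Young male 2 was unusual in other markers too, with 0.401 CPM of Dsp and 2056 CPM of striatum markers. Markers of microglia were higher in 10 of 10 genes, with a median of 0.36; Trem2, a lipid-sensing receptor, was called (0.76, limma adjusted p = 0.0100), and the summed level ran from 393.4 to 443.8 CPM in young and 474.5 to 685.9 CPM in old libraries. Myelin genes were higher in 18 of 20 (median 0.19, 0 called). With libraries of Dsp of at least 5 CPM (5 against 5), Gpr17 differed by -0.61 (SE 0.0708; limma, adjusted p = 0.0158). With covariates for choroid plexus, striatal and thalamic marker levels, it differed by -0.49 (SE 0.104), with an unadjusted p of 0.000647 and an adjusted p of 0.926, and 1 gene in all was called. With replicate numbers as a block the adjusted p was 0.0527. The part of the choroid plexus markers alone, and of the microglia and myelin markers, in the result was not tested.

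**Figure D2:**
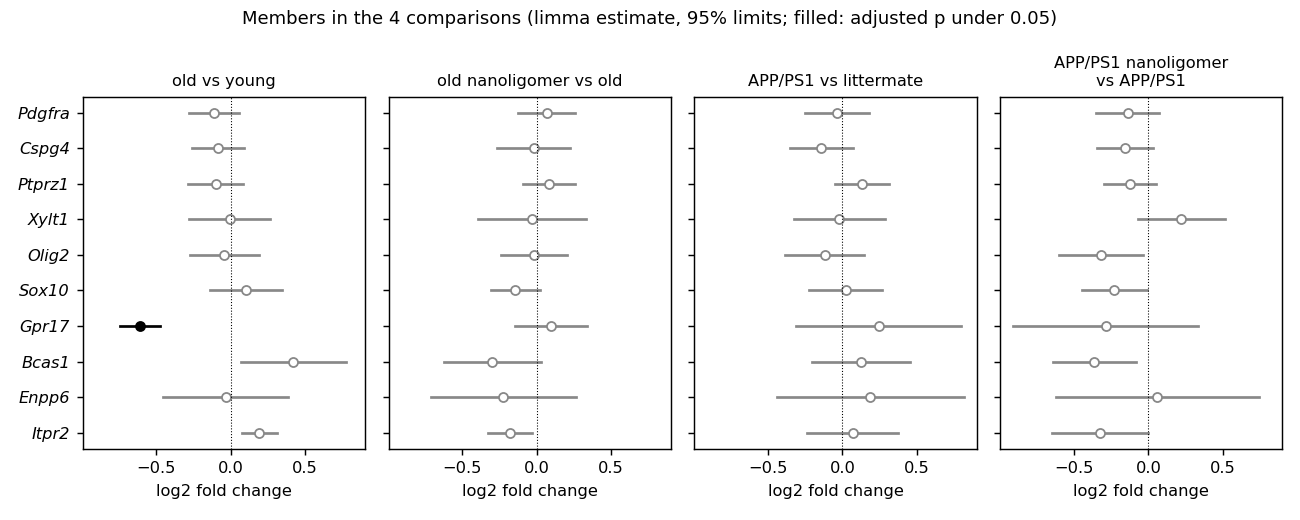
Log2 fold change (horizontal axis) of each of the 10 genes in the 4 comparisons, as limma estimate with 95% limits; filled points have an adjusted p under 0.05. Gpr17 in old against young mice, at -0.61, is the only filled point of 40.

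Gpr17 was lower relative to Pdgfra in old mice. This ratio sets a gene of the committed stage beside a gene of the precursor stage within each library and does not depend on scaling. It reuses the Gpr17 values of the age comparison, where Pdgfra differed by -0.11 and Gpr17 by -0.61. The ratio therefore mostly restates the fall of Gpr17 and is no separate result on stages. The ratio of Gpr17 to Pdgfra was 1.07, 1.10 and 1.05 in young females and 1.02, 1.05 and 0.980 in young males. It was 0.824, 0.728 and 0.809 in old females and from 0.615 to 0.882 in old males. All 6 old libraries lay below all 6 young ones. The mean log2 difference was -0.50, from a ratio of 1.04 to 0.740 (exact permutation test within sex, 2-sided, p = 0.005, the smallest that 400 permutations can give, and 0.02 when adjusted over the 4 comparisons). No difference in the ratio passed the test with nanoligomer in old mice (0.740 and 0.756), with the transgenes (1.05 and 1.27) or with nanoligomer in APP/PS1 mice (1.27 and 1.12). The exact permutation test gave adjusted p-values of 0.81, 0.79 and 0.81, and the last design cannot go below 0.01.

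**Figure D3:**
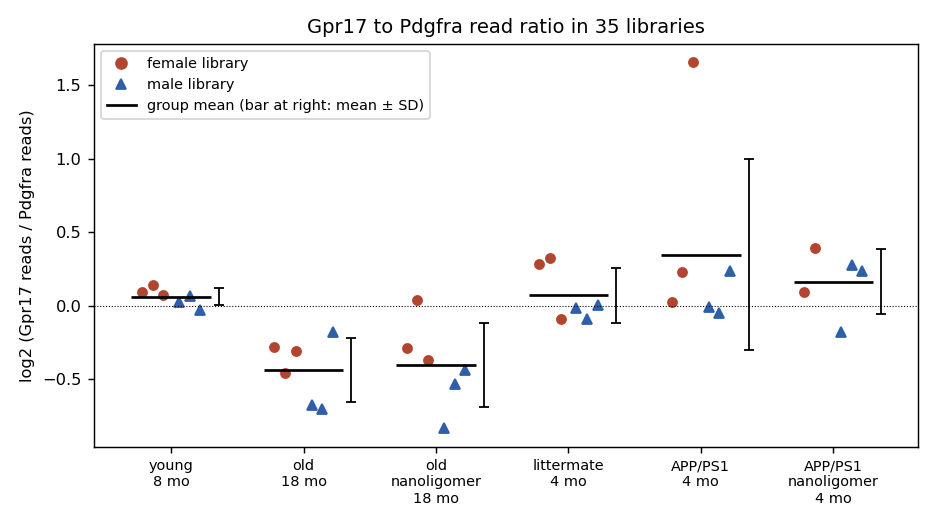
Log2 of the ratio of Gpr17 to Pdgfra reads (vertical axis) in each library by group, with circles for females, triangles for males, a line at the mean and a bar of mean ± SD. Young libraries lie near 0 (ratios 0.980 to 1.10) and old libraries below them (0.615 to 0.882); APP/PS1 female 3 is highest at a ratio of 3.15.

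The second comparison asked whether nanoligomer changed the genes in old mice. None of the 10 genes passed the test, and neither did any of 16517 genes (0%). Gpr17 had a lowest, median and highest value of 1185, 1406 and 1622 normalized counts in old and 1135, 1390 and 2533 in treated libraries. The groups overlapped throughout, and only old nanoligomer female 2 exceeded the old range. The difference was 0.10 (SE 0.111, limits -0.14 to 0.34; limma, adjusted p = 0.831), and -0.02 (SE 0.0560) without that library. With libraries of Dsp of at least 5 CPM (5 old, 4 treated), which also lack old nanoligomer female 2, it was 0.0058 (SE 0.0653). Over all genes, limma gave 1192 (7.22%) an unadjusted p under 0.05, edgeR called 0 and DESeq2 called 2.

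Of the 10 genes, 1 had an unadjusted p under 0.05 in limma in treated old mice, near the 7.22% of all genes. That gene, Itpr2, lay in the opposite direction to its age difference. It had 1272, 1402 and 1437 normalized counts in old and 1108, 1205 and 1392 in treated libraries, and 5 of 6 treated libraries lay below every old one. The difference was -0.18 (SE 0.0671; limma, unadjusted p = 0.0204, adjusted p = 0.678). The old libraries are shared by both comparisons, so the directions are not independent. Bcas1 differed by -0.30 (SE 0.151), Enpp6 by -0.22 (SE 0.224) and Sox10 by -0.14 (SE 0.0758), none past the test. The remaining 5 genes lay between -0.03 and 0.09. In 42 genes (0.254%) the groups did not overlap, and no gene of the set was among them. The interaction of sex and treatment was called for 0 of 16517 genes (0%), while 778 had an unadjusted p below 0.05; for Gpr17 it was -0.29 (SE 0.216).

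Old nanoligomer female 2 carried a profile of its own. It held the highest Pdgfra, Cspg4, Ptprz1, Xylt1 and Gpr17 of its group and the lowest Bcas1 and Enpp6. Gpr17 was 66.8 CPM, 1.57 times the next highest treated library. Myelin markers were below the other 5 libraries in 20 of 20 genes, with a summed level of 4357 CPM against 6020 to 9177 CPM. Of all 14784 genes compared, 19.5% were above and 21.3% below the other 5 libraries. Its Dsp level was 0.389 CPM, the lowest of the 35 libraries. What the dissected region contributes to these levels was not tested.

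The third comparison set APP/PS1 against littermate hippocampus at 4 months. No gene of the set passed the test, while 8 of 16475 genes (0.0486%) did. Gpr17 had a lowest, median and highest value of 2088, 2352 and 2520 normalized counts in littermates and 2004, 2261 and 7969 in APP/PS1 libraries. The 5 APP/PS1 libraries other than female 3 lay between 2004 and 2506, within or just below the littermate range. The difference was 0.24 (SE 0.255, limits -0.31 to 0.79; limma, adjusted p = 0.802), and without APP/PS1 female 3 it was -0.05 (SE 0.0685, limits -0.20 to 0.10). The number of genes called over the whole table was 256 without that library, and the 10 genes were not among those called under any alternative of this comparison.

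The other 9 genes were not called with the transgenes. Ptprz1 differed by 0.13 (SE 0.0841) and Cspg4 by -0.14 (SE 0.0975), in opposite directions, while Pdgfra differed by -0.03 (SE 0.0989). Olig2 differed by -0.12 (SE 0.123), Sox10 by 0.02 (SE 0.112), Xylt1 by -0.02 (SE 0.141), Bcas1 by 0.12 (SE 0.152), Itpr2 by 0.07 (SE 0.141) and Enpp6 by 0.19 (SE 0.290). None had an unadjusted p under 0.05 in limma, against 10.2% of all genes, and none had groups without overlap, against 0.85%. The interaction with sex was called for 0 of 16475 genes (0%), while 840 had an unadjusted p below 0.05. Markers of striatum were higher in 12 of 12 genes (median 1.10) and of choroid plexus lower in 12 of 12 (median -0.89) in APP/PS1 libraries. Dsp had a median of 7.52 CPM there and of 35.3 CPM in littermates. With libraries of Dsp of at least 5 CPM (6 littermate, 4 APP/PS1), Gpr17 differed by -0.09 (SE 0.0716) and 906 genes in all were called. This subset also lacks APP/PS1 female 3 (Dsp 4.08 CPM). That library's summed dentate markers, 104.1 CPM, lay within the 37.7 to 128.9 CPM of the 4 APP/PS1 libraries kept. With the regional covariates and all libraries Gpr17 differed by 0.74 (SE 0.362, limma unadjusted p = 0.0667, adjusted p = 0.952).

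APP/PS1 female 3 held 3.03 times the Gpr17 of the next highest APP/PS1 library. Enpp6 was 16.2 CPM against at most 7.86 CPM in the others, Itpr2 62.9 against 39.96, Olig2 50.7 against 41.9 and Bcas1 298.8 against 234.0 CPM. In all, 7 of the 10 genes were above the other 5 libraries, with Pdgfra, Cspg4 and Xylt1 within their range. Of 14784 genes, 21.7% were above and 17.4% below all others, and 243 (1.64%) were more than 2 times the highest other library, and Gpr17 ranked 68 by its distance from the others. Microglia markers were above all others in 10 of 10 genes, with a summed level of 1053 CPM against 357.8 to 445.4 CPM. So were the 8 of 12 listed proliferation genes that averaged at least 1 CPM over all libraries used, this one included. The summed level of all 12 was 112.4 against 38.7 to 49.8 CPM. Mki67, a marker of dividing cells, was 22.2 CPM against at most 5.39 CPM. Of the astrocyte list, 5 of 12 genes were above and 1 below the others (median 0.12), with Gfap, an astrocyte filament, at 2095 against at most 343.7 CPM. Of the committed and newly formed markers, 9 of 14 were above the others, among them Bmp4 at 10.1 against 3.05 CPM and Lims2 at 40.9 against 19.6 CPM. Lims2 shares 188 exonic bases with Gpr17, so some of its reads may belong to Gpr17. Myelin markers were not raised, with a median of -0.21. The parts of these cell types in the Gpr17 level of this library were not tested.

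**Figure D4:**
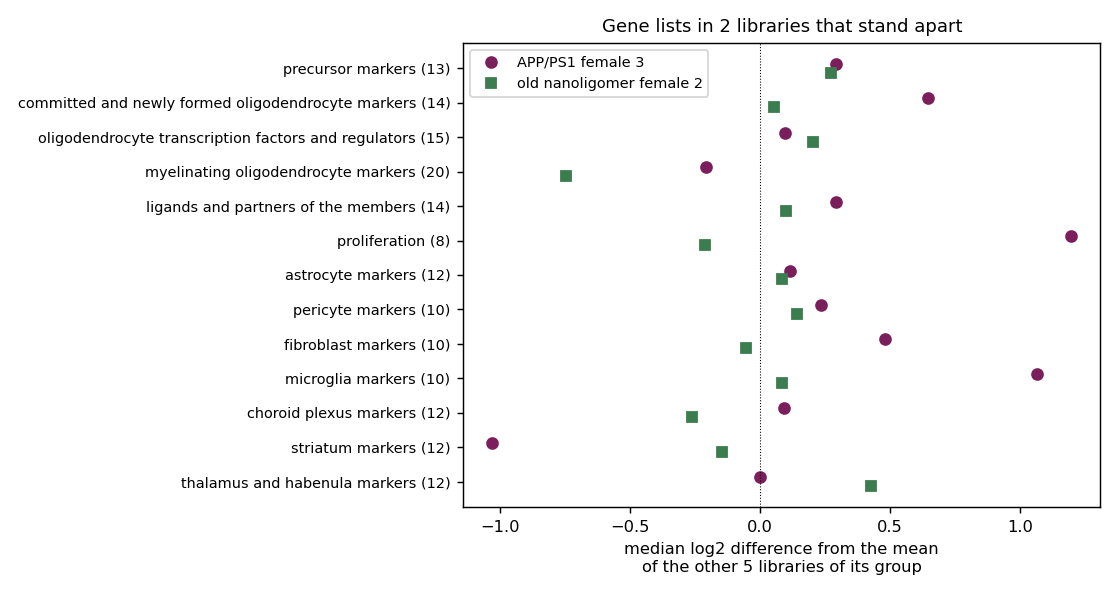
Median log2 difference from the mean of the other 5 libraries of the same group (horizontal axis) for 13 gene lists, with the number of genes measured in brackets, in APP/PS1 female 3 (circles) and old nanoligomer female 2 (squares). Proliferation (1.20) and microglia markers (1.07) are highest in the first library, and myelinating markers (-0.75) lowest in the second.

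The last comparison asked whether nanoligomer changed the genes in APP/PS1 mice, with 5 treated and 6 control libraries. None of the 10 genes, and none of 16124 genes (0%), passed the test; 477 (2.96%) had an unadjusted p under 0.05, edgeR called 0 and DESeq2 called 7. Gpr17 was 1799, 1914, 1246, 1658 and 1644 normalized counts in treated libraries. Control libraries had a lowest, median and highest of 1504, 1711 and 5946. The treated libraries lay around the control median, with 1 below the control range. The difference was -0.29 (SE 0.283; limma, adjusted p = 0.997), and -0.03 (SE 0.102) without APP/PS1 female 3. With libraries of Dsp of at least 5 CPM (4 control, 3 treated) it was 0.12 (SE 0.0958, limma adjusted p = 0.643). That subset also lacks APP/PS1 female 3.

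An unadjusted p under 0.05 was reached by 477 (2.96%) of all genes in limma. Of the set, 4 genes leaned lower with nanoligomer in APP/PS1 mice, each with an unadjusted p under 0.05 and an adjusted p of 0.997 in limma. They are Bcas1 at -0.36 (SE 0.128), Olig2 at -0.32 (SE 0.129), Sox10 at -0.23 (SE 0.0994) and Itpr2 at -0.32 (SE 0.146), with limma unadjusted p-values from 0.0159 to 0.0483. Olig2 was 847, 636, 799, 773 and 797 normalized counts in treated libraries and 819 to 1365 in control ones. Thus 4 of 5 treated libraries lay below all control libraries. Bcas1 was 5178, 4122, 4136, 5478 and 4048 in treated and 4655 to 8048 in control libraries, with 3 of 5 below. Across the 35 libraries, with group and sex means taken out, Pearson's r was 0.76 to 0.87 among Bcas1, Olig2 and Sox10. Their differences are therefore not independent. The groups overlapped for every gene of the set, against 50 genes (0.31%) of the table without overlap. Without APP/PS1 female 3 the 4 values were -0.29, -0.23, -0.19 and -0.21 in the same order. With libraries of Dsp of at least 5 CPM (4 control, 3 treated) they were -0.38, -0.19, -0.17 and -0.17. None was called there, while 574 genes of the whole table were.

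Pdgfra at -0.14 (SE 0.0976), Cspg4 at -0.15 (SE 0.0862) and Ptprz1 at -0.12 (SE 0.0799) were also below 0, and Xylt1 at 0.22 (SE 0.132) and Enpp6 at 0.06 (SE 0.310) above it. The median over the 10 genes was -0.19, beside -0.0022 over all genes. The interaction with sex was called for 0 of 16124 genes (0%), while 728 had an unadjusted p below 0.05. Xylt1 had a difference of 0.54 (SE 0.159) in females and -0.04 (SE 0.142) in males, an interaction of -0.58 (unadjusted p = 0.0202, adjusted p = 0.924). Choroid plexus markers were higher in 12 of 12 genes in treated libraries (median 2.55, 0 called), with a summed level of 101.1 to 4183 CPM against 45.6 to 141.0 CPM. Its part in the differences was not tested.

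Whether an effect differed between the arms was tested in joint fits over tables that share no library. The transgene effect on Gpr17 minus the age effect was 0.85 (SE 0.282; limma, adjusted p = 0.274) with all libraries, with 7 of 16300 genes called (0.0429%). Without APP/PS1 female 3, a choice made after the values were seen, it was 0.55 (SE 0.0888, limits 0.37 to 0.74, adjusted p = 0.00893), with 20 of 16272 genes called (0.123%). The age effect alone was -0.61 and the transgene effect without that library -0.05, so this contrast mostly restates the fall with age. The other 9 genes were not called in either joint fit. Itpr2 was nearest in the second, at -0.26 (SE 0.102, limma adjusted p = 0.241). The treatment effect on Gpr17 in APP/PS1 minus that in old mice was -0.38 (SE 0.313, adjusted p = 0.918), with 0 of 15990 genes called (0%) and 695 at an unadjusted p under 0.05. Without APP/PS1 female 3 and old nanoligomer female 2 it was -0.01 (SE 0.112, limits -0.25 to 0.22), with 0 of 15952 called (0%) and 830 at an unadjusted p under 0.05.

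The 10 genes did not vary together as a single block. As a description over 35 libraries, with group and sex means taken out, Pearson's r was positive in 38 of 45 pairs with a median of 0.26; the libraries share depth and dissection, and no test is attached. Olig2 with Sox10 was highest (0.87), and Bcas1 followed both, at 0.76 with Olig2 and 0.79 with Sox10. Pdgfra went with Ptprz1 (0.67) and Cspg4 (0.54). Xylt1 with Bcas1 was lowest (-0.44). Gpr17 went with Itpr2 (0.54), Ptprz1 (0.51) and Enpp6 (0.49), but without APP/PS1 female 3 the values were -0.15 with Itpr2, 0.64 with Ptprz1 and -0.08 with Enpp6. In these 34 libraries Gpr17 went with the precursor genes Ptprz1, Cspg4 (0.51) and Pdgfra (0.44), and stood at -0.24 with Bcas1. They include old nanoligomer female 2, the highest of its group for Gpr17 and these precursor genes and the lowest for Bcas1. How far the correlations rest on that library was not tested.

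**Figure D5:**
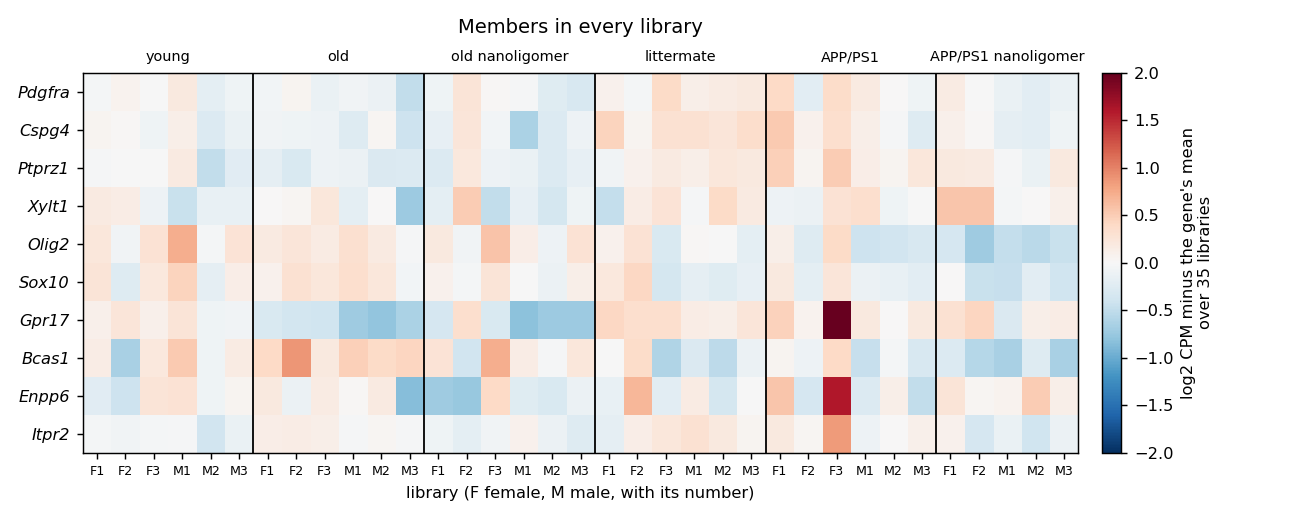
Log2 CPM of each of the 10 genes minus its mean over the 35 libraries (colour, red above and blue below), with libraries in columns by group (F female, M male, with number). Gpr17 is blue in the old and most treated old libraries, and APP/PS1 female 3 is red for Gpr17 (220.8 CPM), Enpp6 (16.2 CPM) and Itpr2 (62.9 CPM).

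Among 13381 genes, those most like Gpr17 across 35 libraries with means taken out were Grn (r = 0.85), Laptm5 (0.83), C3ar1 (0.81), Fyn (0.81) and Pld4 (0.81). These rest on 1 library: without APP/PS1 female 3 they were 0.14, 0.12, 0.22, 0.31 and 0.03. By level, with means left in, the most alike were Tnc (0.81), Ndc1 (0.80), Ptpro (0.79), Fabp7 (0.78) and Frmd4a (0.78), and without that library Tnc stood at 0.74 and Ptpro at 0.83. Over the other 34 libraries with means taken out the highest were Psme3 (0.82), Pcbp3 (0.81), Vipas39 (0.77), Dpysl5 (0.75) and Afmid (0.75), and by level Ptpro, Grin3a (0.79), Dpysl3 (0.78), Ptprf (0.77) and Fndc1 (0.75). Tnc encodes the matrix protein tenascin-C, and Fabp7 a fatty acid-binding protein of progenitors and astrocytes.

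The wider lineage was read from lists of further genes, none of which had a called gene in limma in any of the 4 comparisons. Of 13 precursor markers, 10 were lower in old mice (median -0.14), with the smallest p for the cadherin gene Pcdh15 at -0.36 (SE 0.116; unadjusted p = 0.00840, adjusted p = 0.621 in limma). The same gene was 0.53 (SE 0.153, limma adjusted p = 0.678) in treated against control old mice. Precursor markers were higher in 8 of 13 with nanoligomer in old mice (median 0.05), higher in 9 of 13 with the transgenes (median 0.17) and lower in 13 of 13 with nanoligomer in APP/PS1 mice (median -0.17). With the transgenes, the synaptic ligand Nxph1 was at 0.25 (SE 0.0736) and Cacng4, an auxiliary protein of AMPA receptors, at 0.58 (SE 0.229), with limma adjusted p-values of 0.244 and 0.407. Without APP/PS1 female 3, the precursor markers were higher in 7 of 13 with the transgenes (median 0.12). With nanoligomer in APP/PS1 mice they were then lower in 12 of 13 (median -0.10).

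Committed and newly formed markers, the stage of Gpr17, were lower in 9 of 14 in old mice (median -0.11), with the growth factor Bmp4 at -0.79 (SE 0.285; unadjusted p = 0.0171, adjusted p = 0.672 in limma) and the sialidase Neu4 at -0.27 (SE 0.120). They were lower in 13 of 14 with nanoligomer in old mice (median -0.11), in 7 of 14 with the transgenes (median -0.01) and in 13 of 14 with nanoligomer in APP/PS1 mice (median -0.09). Without APP/PS1 female 3 the last was 6 of 14 lower (median 0.01), the transgene median was -0.15 (10 of 14 lower), and 2 genes of the list were called with the transgenes, among them Mycl at -0.86 (adjusted p = 0.0265 in limma). Transcription factors and regulators were higher in 8 of 15 with age (median 0.08), 5 of 15 with nanoligomer in old mice (median -0.11), 10 of 15 with the transgenes (median 0.05) and 2 of 15 with nanoligomer in APP/PS1 mice (median -0.17). Nkx2-2, a factor of differentiating precursors, was -0.56 (SE 0.221, adjusted p = 0.997) in that last comparison.

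Myelin genes were lower in 19 of 20 with nanoligomer in old mice (median -0.21), higher in 14 of 20 with the transgenes (median 0.04) and lower in 19 of 20 with nanoligomer in APP/PS1 mice (median -0.14). Without old nanoligomer female 2 the first of these medians was -0.09, and without APP/PS1 female 3 the transgene value was 19 of 20 higher (median 0.10). Ligands and partners of the set were lower in 11 of 16 with age (median -0.07), with the smallest p for Tnc at -0.72 (SE 0.275; unadjusted p = 0.0218, adjusted p = 0.712 in limma). Their medians were -0.02 with nanoligomer in old mice, 0.02 with the transgenes and -0.06 with nanoligomer in APP/PS1 mice; without APP/PS1 female 3 the last 2 turned sign, to -0.02 and 0.09. Of the proliferation genes, 4 of 9 tested were higher with age (median -0.02) and 4 of 9 with nanoligomer in old mice (median -0.13). In the transgenic arm 12 passed the filter on low values with APP/PS1 female 3 and 9 without it, so counts are given without that library. There 0 of 9 were higher with the transgenes (median -0.10) and 5 of 9 with nanoligomer in APP/PS1 mice (median 0.02).

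Of the lists of other cells, astrocyte markers had medians of 0.07 with age, -0.03 with nanoligomer in old mice, -0.03 with the transgenes and -0.14 with nanoligomer in APP/PS1 mice. Pericyte markers, relevant because pericytes also express Cspg4, had medians of 0.0053, 0.06, 0.07 and -0.20 in the same order. Fibroblast markers, relevant because fibroblasts express Pdgfra, had medians of -0.08, -0.49, -0.90 and -0.28, with 10 of 10 lower with the transgenes and summed levels of 133.2 to 325.2 CPM in littermates and 83.9 to 165.6 CPM in APP/PS1 libraries. Their part in the Pdgfra and Cspg4 values was not tested. Microglia markers had medians of -0.12, 0.23 and -0.21 in the comparisons after age. With APP/PS1 female 3 left out the last 2 were 0.0023 (5 of 10 higher, against 9 of 10 with it) and -0.02. Medians were, for striatum markers, -0.53, 0.61, 1.10 and -0.35, and, for thalamus and habenula markers, -0.36, -0.15, 0.27 and -0.15. Without that library the last 2 values were 1.40 and -0.56 for striatum and 0.36 and -0.26 for thalamus and habenula. Choroid plexus markers had a median of 0.12 with nanoligomer in old mice.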

How the data were processed

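Polyadenylated hippocampal RNA was sequenced after TruSeq library preparation, per the labels' protocols. STAR, DESeq2 and mm10 are named in the submitters' processing notes, with no role; the counter, annotation, strand setting and versions are not stated there. The authors deposited normalized counts, a signal scaled by library; the 4 tables hold 12 columns each and were fitted apart. Whole reads were recovered from the deposited values by dividing by each library's step: 100% of values lay within 0.001 reads of a whole number, and reads of the 12 libraries that stand in 2 tables were identical. The column of APP/PS1 nanoligomer male 3 differs from its title in 1 letter. 0 columns of values were left unused. CPM are recovered reads per 1000000 assigned reads, and CPM per kb divides by GENCODE exon length on GRCm38.

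Limma 3.58.1 (R 4.3.3) was fitted to log2(normalized count + 1) where a gene averaged 10 or more; the model had terms for sex and group, and the variance prior followed the mean level. All 10 genes passed this filter in every table. A gene was called when its p, adjusted over all genes by Benjamini-Hochberg, was below 0.05. Fold changes on this scale understate changes of low genes. edgeR 4.0.16 and DESeq2 1.42.0 were run on the recovered reads; edgeR called 6, 0, 8 and 0 genes in the 4 comparisons (age, nanoligomer in old, transgenes, nanoligomer in APP/PS1). The main limma and edgeR fits were run on simulated counts with seeded changes. The DESeq2 fits, the alternatives below, the joint fits and the ratio test were not simulated. Filters, pseudocounts, scaling, library weights, sex term, replicate block, regional covariates and each library's removal were varied. All 10 genes were named in every comparison; of each of 13 lists (163 of 164 genes found) names were taken from the called genes, or from the 2 of smallest p. Likeness used the 5 highest correlations among genes of at least 1 CPM, leaving out predicted and sex-linked genes. Olig1, Sox6, Tcf7l2 and P2ry12 stand in more than 1 list. The genes and lists were chosen with earlier results of these data known.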

Additional observations from a re-analysis of the deposited data

Results flagged for a closer look

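In each group of 5 or 6 libraries, each gene's highest and lowest library was compared with the rest by its gap to the nearest other library over the group's range (Dixon's 95% limit). Of 60 groups tested, 8 had a library beyond the limit; chance alone gives about 1 in 20. In APP/PS1 mice, female 3 was highest for Gpr17 at 220.8 CPM (next 72.9), for Itpr2 at 62.9 CPM (next 39.96) and for Enpp6 at 16.2 CPM (next 7.86). In treated old mice, female 2 was highest for Gpr17 at 66.8 CPM (next 42.6), for Ptprz1 at 285.1 CPM (next 231.3) and for Xylt1 at 37.2 CPM (next 24.6). In old mice, female 2 was highest for Bcas1 at 417.0 CPM (next 313.6). In young mice, male 2 was lowest for Itpr2 at 26.6 CPM (next 31.7); that library was also low in dentate markers.

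The transgene effect on Gpr17 minus the age effect was 0.55 on the log2 scale without APP/PS1 female 3 (limma, adjusted p = 0.00893). With that library it was 0.85 (limma, adjusted p = 0.274). The age effect alone was -0.61, and the transgene effect without that library was -0.05. The 0.55 therefore mostly restates the fall with age, and the library was left out after its values were seen. The arms also differ in age and strain label, and those differences cannot be told apart from this contrast.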

How the results depend on the processing

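Gpr17 in old against young mice kept its direction under all 26 alternatives and its call under all but 2: -0.61 with the replicate block (adjusted p = 0.0527, SE 0.0716) and -0.49 with the regional covariates (adjusted p = 0.926). Leaving out 1 library each gave -0.63 to -0.56, and adjusted p-values from 0.00159 to 0.00968. No other gene of the set was called under any alternative; of their 234 values in each comparison, the sign differed from the reported one in 20 (age), 14 (nanoligomer in old), 20 (transgenes) and 11 (nanoligomer in APP/PS1), and for Gpr17 in 0, 1, 2 and 1. Genes called with age numbered 6, but 14 with library weights, 123 with DESeq2, 1 with the block, 1 with regional covariates and 4 to 11 with 1 library out (11 without old female 1). With nanoligomer in old mice DESeq2 called 2. With the transgenes 8 became 548 with library weights, 256 with DESeq2, 4 with regional covariates, 906 with Dsp of at least 5 CPM (added after seeing the data) and 6 to 256 with 1 library out (256 without APP/PS1 female 3, 21 without APP/PS1 female 1). With nanoligomer in APP/PS1 mice 0 became 1 without filter, 7 with DESeq2 and 574 with Dsp of at least 5 CPM. The transgene minus age difference of Gpr17 became called, at 0.55, without APP/PS1 female 3. The cause was not tested. Including the low-depth library gave a Gpr17 difference of -2.11 (SE 1.72), beside a median of -0.68 over all genes. Same-numbered deviations correlated at -0.25 to 0.29 (age), -0.17 to 0.06, -0.02 to 0.19 and 0.0086 to 0.10 in the other comparisons. The correlation was highest with the own number in 3 of 6, 1 of 6, 4 of 6 and 3 of 5. With at most 3 libraries of a sex to match in each group, this check cannot exclude that replicate numbers pair libraries. The replicate block called 1, 0, 10 and 0 genes. The 10 genes had 98 or more reads in each of the 35 libraries.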
